A study of Sus scrofa with 14 samples.

Results

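Interleukins, chemokines, the tumour necrosis factor (TNF) superfamily and their receptors were read in pig meniscus, the fibrocartilage pad of the knee. The members were the genes whose pig symbol starts with IL and a digit, CCL, CCR, CXCL, CXCR, TNFSF or TNFRSF, without IL1A, IL1B, IL1RN, IL6, IL18 and IL7R. This rule gave 67 genes of the 2389 that carried a name, read by 89 probes, and uses no measured value. RNA came from 14 male Wuzhishan pigs, which the labels give as 6 to 7 months old, with 1 array per animal. Animals were assigned at random: 7 had anterior cruciate ligament surgery (the osteoarthritis group, OA) and 7 a sham operation, and tissue was collected from both at 24 weeks. The series title sets the study in degenerative meniscus of knee osteoarthritis, which is the question behind comparing OA with sham. The model is a surgical lesion in 1 breed and 1 sex.

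Interleukins are secreted signals that act through receptors built from several chains, which recruit JAK kinases and STAT transcription factors or, in the interleukin-1 family, adaptors that lead to nuclear factor kappa B. Chemokines bind receptors that couple to G proteins and direct the movement of leukocytes; the CC and CXC classes are named for the spacing of their first cysteines. TNF-family ligands act through receptors that recruit TRAF adaptors or, where a death domain is present, start cell death or inflammatory signalling. In the joint these molecules are known as products of synovium, immune cells and fibrocartilage cells in injury and inflammation.

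Signals are intensities in arbitrary units. Scaled signal is the processed signal brought to a common 75th percentile across arrays, and a change is the difference OA minus sham in log2 scaled signal. Each gene is represented by its brightest probe, and signals of different probes do not rank transcript levels. The meniscus label was checked against 3 measured cartilage and fibrous matrix genes, ACAN, SOX9 and DCN, which were well above background on all 14 arrays; COL2A1, COMP and PRG4 were not analysed here. Some markers of other tissues differed. LEP, 1 of 3 tested adipocyte markers, and TNNI1, 1 of 5 skeletal muscle markers, rose in OA. Their changes were 0.74 ± 0.16 and 0.71 ± 0.18 (SE, log2, limma adjusted p = 0.021 and 0.041). MYH7, another muscle marker, stood at 0.97 ± 0.29 (limma adjusted p = 0.075). The remaining tested markers of both lists were not called and had both signs. ADIPOQ stood at -0.18 ± 0.27 and FABP4 at 0.74 ± 0.63. The muscle markers ACTA1, MYH2 and CKM stood at -0.38 ± 0.29, 0.37 ± 0.54 and 0.18 ± 0.27. The part of fat and muscle in the members' results was not tested. The unscaled 75th percentile of the arrays ran from 418 to 622 in sham and from 156 to 492 in OA, and the share of probes well above background from 89.7% to 95.2% in sham and from 67.9% to 89.3% in OA. Arrays with the same recorded scan date and time are called a slide here. Slides were thus inferred from scan time and not read from a slide label. Each slide and each scan day held 1 group only. Sham 1 to 7 lay on slides 1 and 2. OA 1 lay on slide 3, OA 2 to 5 on slide 4, and OA 6 and 7 on slide 5. A difference between the groups and a difference between slides therefore cannot be told apart. In whole tissue, fewer cells of a type and less RNA per cell cannot be told apart either.

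Most members were detected in the meniscus. Of the 67 members, 44 were well above background on all 14 arrays and 60 on at least 7, the minimum for testing. All 60 were well above background on each of the 7 sham arrays, so they passed the filter through the sham group, and 16 of them missed it on at least 1 OA array. Counted by array, 60 to 62 members were well above background in sham and 48 to 60 in OA. OA 6 and OA 7, whose 75th percentiles were 404 and 492, showed 60 each, while OA 4, the dimmest array at 156, showed 48.

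**Figure D1:**
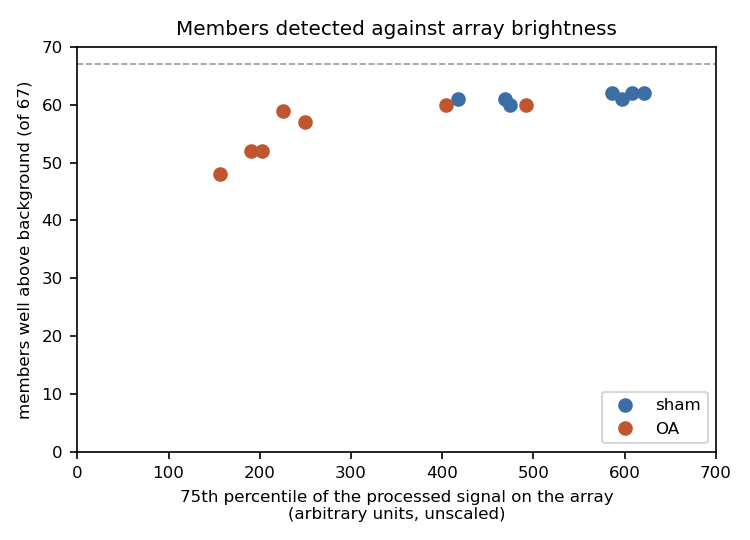
The number of members well above background (vertical axis, of 67, dashed line) is plotted against each array's unscaled 75th percentile of processed signal (horizontal axis, arbitrary units), with 1 point per array, sham in blue and OA in orange. The OA arrays with a percentile of 156 to 250 showed 48 to 59 members, whereas OA 6 and OA 7 showed 60, as many as sham 7.

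The 7 members under the detection minimum were all interleukins except CCR9, a receptor of gut-homing lymphocytes. IL4, IL5, IL9 and IL21, cytokines of helper T cells, were not well above background on any array. IL12A, a subunit of interleukin-12, passed on 1 sham array and IL17A, the signature cytokine of Th17 cells, on 3 sham arrays and 1 OA array. CCR9 passed on 5 sham arrays and 1 OA array. The unscaled signal of IL4 was 1.19 to 3.34 in sham and 1.56 to 3.70 in OA, and no change is given for it or the other 6.

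Of the 60 tested members, 3 rose in OA and 0 fell (limma, Benjamini-Hochberg adjusted over all 38818 tested probes). IL1B2, CCR10 and IL2RG were the members that rose. Among all 2258 tested genes 2.97% were called higher and 0.266% lower (3.23% in either direction), and 3 of 60 members is near that background. An unadjusted p under 0.05 was reached by 11 members, against 15.3% of all tested genes. The change was positive for 38 members and negative for 22, with a median of 0.11, against 0.00 for all tested genes. The OA arrays lay wholly above the sham arrays for 2 members, IL1B2 and IL2RG, and for 1.86% of all tested genes; no member lay wholly below, against 0.0443%.

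**Figure D2:**
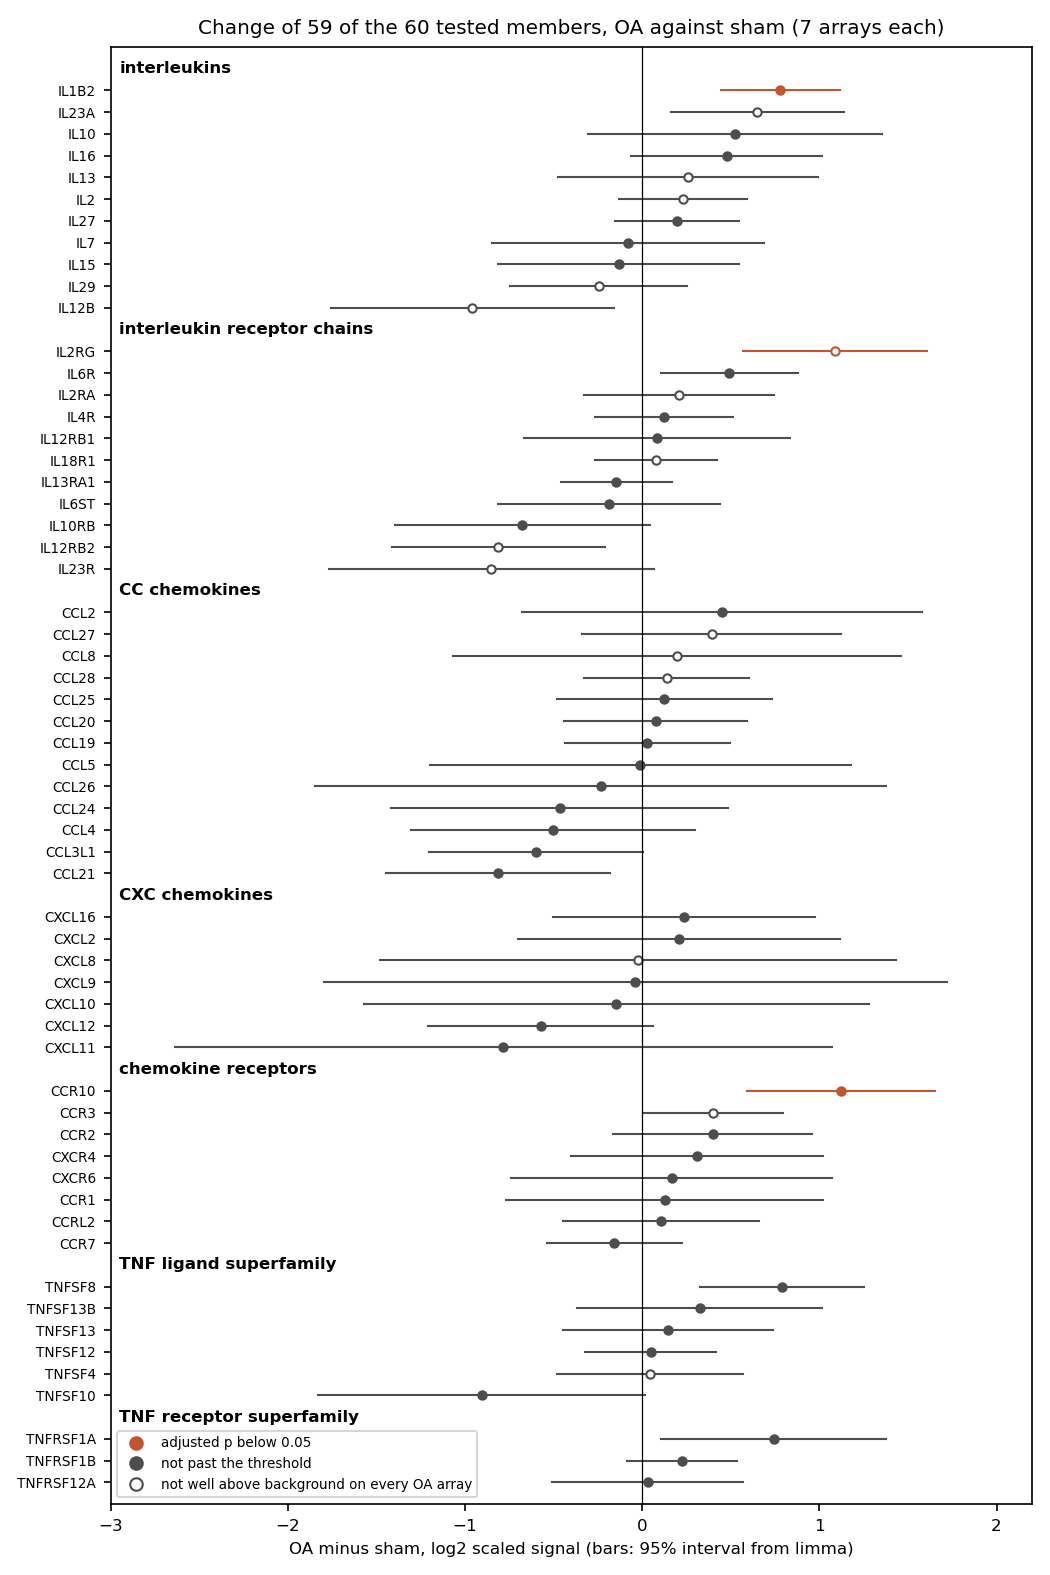
Each point is the change OA minus sham of a tested member in log2 scaled signal (59 of the 60 are drawn), with its 95% interval from limma, grouped by family (7 arrays per group). IL1B2, CCR10 and IL2RG, in orange, passed the threshold at 0.78, 1.12 and 1.09; open circles mark members not well above background on every OA array, and the widest intervals belong to CXCL11, CXCL9 and CCL26.

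IL1B2 is a pig copy of the gene for interleukin-1 beta, an inflammatory cytokine of macrophages. Its scaled signal had a lowest, median and highest value of 56.1, 58.5 and 72.6 in sham and 81.4, 110 and 131 in OA. The groups did not overlap; OA 6 and OA 7 were the lowest of the OA arrays, at 82.3 and 81.4. The limma fit gave a log2 rise of 0.78 ± 0.16 (SE, 7 animals in each group, adjusted p = 0.014), or 1.72-fold, and 7 of 7 OA arrays exceeded the sham mean. Before scaling, the order of the medians was the other way, at 92.6 in sham and 74.8 in OA. The 2 dimmer probes of IL1B2, each well above background on 4 of 7 OA arrays only, gave 0.08 and -0.03. The mean of the 3 probes, which takes in those dim signals, gave 0.28 (limma adjusted p = 0.38). IL1B, read by 1 probe, stood at 0.31 ± 0.39 (SE; limma adjusted p = 0.71); probes of such near-identical copies may each take signal from the other gene.

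CCR10 is the receptor of CCL27 and CCL28, chemokines of skin and mucosa. Lowest, median and highest scaled signals were 234, 306 and 536 in sham and 512, 677 and 1326 in OA. Sham 3, at 536, lay above OA 6, at 512, so the groups overlapped, while 7 of 7 OA arrays exceeded the sham mean. CCR10 rose 2.18-fold, by 1.12 ± 0.25 in log2 (SE, limma adjusted p = 0.022). It was read by 1 probe, and its unscaled medians were 506 in sham and 531 in OA. Its ligands CCL27 and CCL28 stood at 0.39 ± 0.35 and 0.14 ± 0.22, neither past the threshold, and were well above background on 5 of 7 OA arrays each.

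IL2RG is the common gamma chain shared by the receptors of interleukins 2, 4, 7, 9, 15 and 21. Sham arrays ranged over 5.73, 12.4 and 16.2 (lowest, median, highest scaled signal) and OA arrays over 17.0, 22.8 and 28.5. The groups did not overlap, but OA 4 was not well above background and the unscaled medians were near equal, at 16.0 in sham and 15.9 in OA. IL2RG rose 2.12-fold, by 1.09 ± 0.25 in log2 (SE, limma adjusted p = 0.023). Its second probe, well above background on 1 of 7 OA arrays, stood at -0.90 ± 0.34 (SE; limma adjusted p = 0.16), and the mean of both probes at 0.09 (limma adjusted p = 0.87). Of 9 measured T and NK cell markers, cells in which IL2RG is known to be abundant, 0 were called and 3 were positive, with a median change of -0.09; their summed scaled signal ran from 944 to 5028 in sham and from 905 to 3410 in OA. Their part in the result was not tested.

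**Figure D3:**
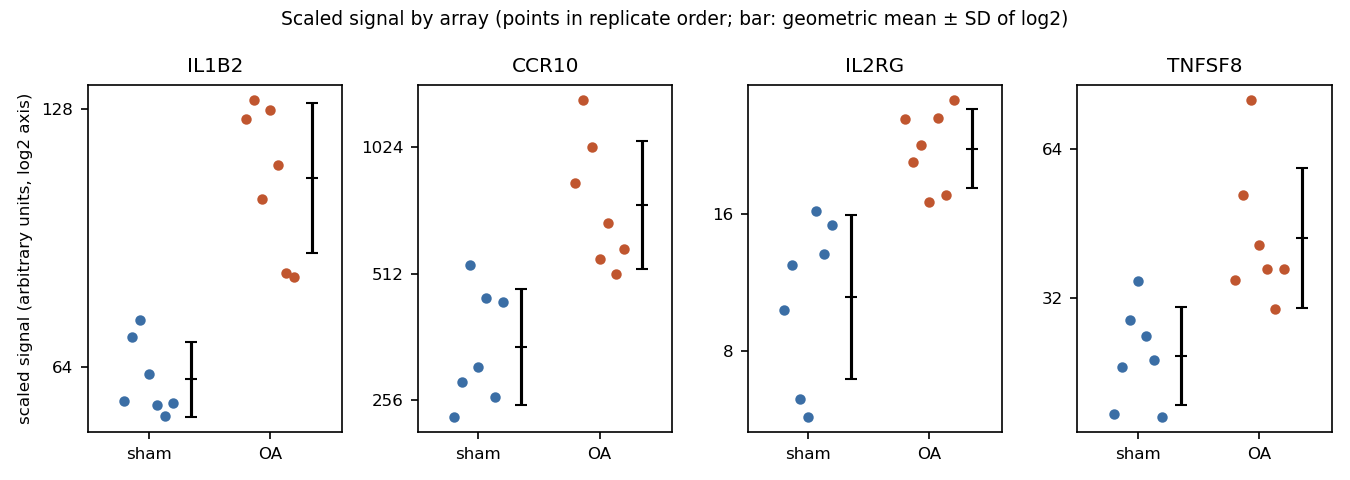
Scaled signal of IL1B2, CCR10, IL2RG and TNFSF8 is plotted by array (arbitrary units, log2 axis; points in replicate order, sham blue, OA orange; bars give the geometric mean and the SD of log2 values, n = 7). OA arrays lie wholly above sham arrays for IL1B2 and IL2RG, and overlap them for CCR10 and TNFSF8.

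The 3 calls did not hold with slide in the model. Each slide held 1 group only, so such a fit cannot separate slide from group. Changes near those of the main fit therefore say nothing on a slide effect. When slide entered limma as a random block, at a correlation of 0.225, 0 of the 60 members passed and 6 had an unadjusted p under 0.05. Of all 2258 tested genes, 1 passed and 172 had an unadjusted p under 0.05, so the loss of calls was not particular to the members. IL1B2 was then at 0.77 ± 0.19 (SE; log2, limma adjusted p = 0.11), CCR10 at 1.09 ± 0.33 (limma adjusted p = 0.19) and IL2RG at 1.07 ± 0.30 (limma adjusted p = 0.16). Without slides 3 and 4, which leaves OA 6 and OA 7 against 7 sham arrays, the changes were 0.40 for IL1B2, 0.68 for CCR10 and 1.09 for IL2RG (limma adjusted p = 0.47, 0.45 and 0.30). Set against the sham mean, IL1B2 was 1.01 higher (log2) on OA 1, 0.91 on OA 2 to 5 and 0.40 on OA 6 and 7. The same values for CCR10 were 1.29, 1.30 and 0.68, and for IL2RG 1.30, 1.03 and 1.09. IL1B2 and CCR10 were thus nearer to sham on slide 5, the OA slide of highest brightness, whereas IL2RG was about as high there as on the other OA slides. Of the 14 fits that left out 1 array, IL1B2 passed in 14, IL2RG in 13 and CCR10 in 11. Without sham 1, 1 member passed, IL1B2, with CCR10 and IL2RG at limma adjusted p of 0.052 and 0.051. Among all 2258 tested genes 36 were then called higher and 4 lower. Without OA 1, 2 members were called lower, IL12B and IL12RB2, against 46 of all 2258 tested genes. Both members were not well above background on several of the OA arrays left in that fit.

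Interleukin ligands other than IL1B2 did not pass. Of 11 tested, 7 were positive, with changes from -0.96 to 0.78 and a median of 0.23. IL23A, the subunit that pairs with the product of IL12B to form interleukin-23, stood at 0.65 ± 0.23 (SE; log2, limma adjusted p = 0.13). Scaled signals were 4.66, 8.52 and 10.6 in sham (lowest, median, highest) and 8.16, 13.4 and 18.7 in OA, and 7 of 7 OA arrays exceeded the sham mean, with 5 of them well above background. Against the sham mean IL23A was 0.80 on OA 1, 0.92 on OA 2 to 5 and 0.04 on OA 6 and 7. OA 6 and OA 7, at 8.39 and 8.16, lay below the sham median. IL10, an anti-inflammatory cytokine, stood at 0.53 ± 0.39 with a 95% interval of -0.30 to 1.35; its scaled signal was 113 to 661 in sham and 223 to 724 in OA. IL16, a chemoattractant of CD4-bearing cells, stood at 0.48 ± 0.26, at 3156 to 10077 in sham and 6167 to 15551 in OA, with 7 of 7 OA arrays above the sham mean. IL15, a growth factor of NK and memory T cells, stood at -0.13 ± 0.32.

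The shared subunit IL12B and the receptor chains IL12RB2 and IL23R, which serve interleukin-12 and interleukin-23, had the most negative changes among the tested interleukins and their receptors, none past the threshold. IL12B stood at -0.96 ± 0.38 (SE; log2, limma adjusted p = 0.17). Its scaled signal was 13.8, 18.7 and 24.5 in sham (lowest, median, highest) and 3.35, 8.56 and 34.95 in OA. OA 1 was the highest of all arrays and OA 1 and OA 6 alone were well above background in OA, so the low values of the other 5 arrays have no exact size. IL12RB2 stood at -0.81 ± 0.28 (limma adjusted p = 0.12), at 31.5 to 43.1 in sham and 12.2 to 52.8 in OA, with 4 of 7 OA arrays well above background. IL23R, at -0.85 ± 0.43, was well above background on 3 of 7 OA arrays, none of them OA 2 to 5. Against the sham mean it was 0.83 on OA 1, -1.79 on OA 2 to 5 and 0.18 on OA 6 and 7. The same values were 0.51, -1.34 and -0.42 for IL12RB2 and 0.90, -1.26 and -1.29 for IL12B. Without OA 1 the fit gave -1.27 for IL12B and -1.03 for IL12RB2 (limma adjusted p = 0.016 and 0.014). Of the OA arrays in that fit, IL12B was well above background on OA 6 alone and IL12RB2 on OA 5, 6 and 7. These 2 values thus rest largely on signals near background and do not settle a fall. With normexp background correction the changes of all 3 genes turned positive. IL12B, at 0.56, and IL23R, at 0.65, were then called higher in OA (limma adjusted p = 0.015 and 0.0033). In that fit 728 of all 2258 tested genes were called higher. IL12RB1, the chain shared by both receptors, stood at 0.09 ± 0.35.

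Of the 11 interleukin receptor chains, all tested, 1 rose (IL2RG), 6 were positive and the median change was 0.08. IL6R, the ligand-binding chain of the interleukin-6 receptor, stood at 0.49 ± 0.18 (SE; log2, limma adjusted p = 0.15), with median scaled signals of 72.5 in sham and 106 in OA and 6 of 7 OA arrays above the sham mean. Its other 2 probes stood at 0.27 and -0.42. IL6ST, the signalling chain gp130 shared by the cytokines of this family, stood at -0.19 ± 0.30, and its other probe at -0.33. IL10RB, a chain of the interleukin-10 receptor, stood at -0.68 ± 0.34 (limma adjusted p = 0.29), with 2 of 7 OA arrays above the sham mean; against the sham mean it was -1.06 on OA 2 to 5 and -0.41 on OA 6 and 7. IL4R, which binds interleukins 4 and 13, stood at 0.12 ± 0.18 with a 95% interval of -0.27 to 0.51. IL1R1 and IL1RAP, chains of the interleukin-1 receptor, were not analysed here.

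None of the 13 CC chemokines passed, of which 7 were positive (median change 0.03). CCL21, the ligand of CCR7 that guides lymphocytes and dendritic cells, stood at -0.81 ± 0.30 (SE; log2, limma adjusted p = 0.14). Its scaled signal was 36.1, 71.9 and 128 in sham (lowest, median, highest) and 20.7, 53.5 and 64.6 in OA, and 0 of 7 OA arrays exceeded the sham mean. CCL19, the other CCR7 ligand and its neighbour in the gene order of the RefSeq table, stood at 0.03 ± 0.22, and CCR7 itself at -0.16 ± 0.18. CCL3L1, a macrophage inflammatory protein, stood at -0.60 ± 0.29 (limma adjusted p = 0.26), but its value was -1.14 on OA 2 to 5, 0.14 on OA 1 and 0.10 on OA 6 and 7. CCL4, the neighbouring gene of the same kind, stood at -0.50 ± 0.38. CCL2, the main monocyte attractant, stood at 0.45 ± 0.53 with a 95% interval of -0.68 to 1.58.

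None of the 7 CXC chemokines passed either, and 5 of 7 changes were negative (median -0.04). CXCL12, the stromal ligand of CXCR4, stood at -0.57 ± 0.30 (SE; log2, limma adjusted p = 0.31), at 431 to 1657 in sham and 346 to 1220 in OA, with 1 of 7 OA arrays above the sham mean. CXCL8, the classical neutrophil attractant, stood at -0.02 ± 0.69 and its interval of -1.48 to 1.43 left a wide range of changes possible. Its scaled signal was 9.06, 21.7 and 247 in sham (lowest, median, highest) and 14.8, 33.5 and 118 in OA. CXCL2, which acts on the same receptor class, stood at 0.21 ± 0.43, and CXCL16, the ligand of CXCR6, at 0.24 ± 0.35. Their other probes gave 0.31 for CXCL2 and 0.19 for CXCL16.

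Several chemokines spread widely between animals of the same group, and the 8 members of widest spread were all chemokines. The pooled within-group SD of log2 signal was 1.90 for CXCL11, 1.80 for CXCL9, 1.65 for CCL26, 1.48 for CXCL8, 1.45 for CXCL10, 1.28 for CCL8, 1.20 for CCL5 and 1.14 for CCL2, against a median of 0.45 over all tested genes. CXCL11 had a wider spread than 99.8% of tested genes and CCL2 than 95.8%. CXCL9, CXCL10 and CXCL11 are ligands of CXCR3 that interferon gamma is known to induce. The scaled signal of CXCL9 had a lowest, median and highest value of 1012, 1228 and 21675 in sham and 712, 1111 and 16571 in OA. That of CXCL10 was 1420, 6303 and 25685 in sham and 1142, 4255 and 21272 in OA. CXCL11 ran from 59.0 to 1622 in sham and from 28.3 to 1132 in OA. Sham 1 was the highest sham array and OA 2 the highest OA array for all 3 genes, and OA 3 was the lowest OA array for each. The groups overlapped over most of their range, with changes of -0.04 ± 0.83, -0.14 ± 0.67 and -0.78 ± 0.88 (SE; log2). Their 95% intervals spanned -1.80 to 1.72 for CXCL9, -1.57 to 1.28 for CXCL10 and -2.64 to 1.07 for CXCL11.

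**Figure D4:**
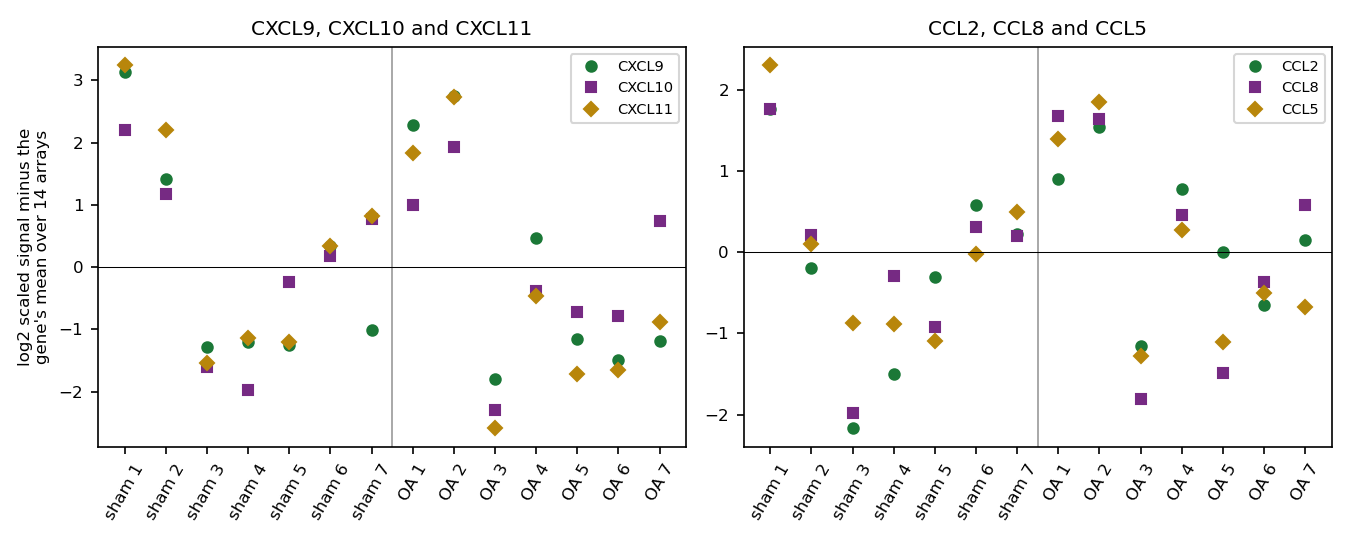
Log2 scaled signal of 6 chemokines, each centred on its own mean over the 14 arrays (vertical axis), is plotted by array (horizontal axis, sham then OA). For CXCL9, CXCL10, CXCL11, CCL2, CCL8 and CCL5, sham 1 and OA 2 are among the 3 highest arrays and OA 3 is the lowest OA array; CCL26 and CXCL8 are not drawn and had other orders.

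The other 2 of the 8 had different orders of animals. CCL26, an eotaxin, was highest on sham 4, at 1200, OA 7, at 1121, and sham 1, at 849, and read 325 on OA 2; its lowest OA array was OA 6, at 49.4. CXCL8 was highest on sham 6, at 247, and sham 7, at 127, before OA 2, at 118.

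Correlations across the 14 animals were computed for 8 pairs of members. The pairs were chosen after their values were seen, so they are given as a description with no p. CXCL9 and CXCL11 had a Pearson r of 0.93 and a Spearman rho of 0.91, with an r of 0.86 without the 2 animals farthest from the median of CXCL9. It was 0.92 within sham, which is also 1 scan day, and 0.97 within the 6 OA arrays of the other shared scan day. CXCL10 and CXCL11 had an r of 0.90 (rho 0.91), 0.85 without the 2 farthest animals, 0.93 in sham and 0.90 in the 6 OA arrays. For CXCL9 and CXCL10 the r was 0.81 (rho 0.87), 0.65 without the 2 farthest animals, 0.82 in sham and 0.78 in the 6 OA arrays. These 3 genes lie close together in the RefSeq gene order, with 1 gene between CXCL9 and CXCL10 and 0 between CXCL10 and CXCL11.

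CCL2 and CCL8, monocyte attractants with 1 gene between them, had an r of 0.84 (rho 0.88), 0.75 without the 2 farthest animals, 0.90 in sham and 0.85 in the 6 OA arrays. CCL3L1 and CCL4 had an r of 0.65 (rho 0.59), which was 0.34 without the 2 farthest animals, 0.35 in sham and 0.70 in the 6 OA arrays, so that it rests on those animals. CXCL2 and CXCL8 had an r of 0.11 (rho 0.20), 0.42 without the 2 farthest animals, 0.43 in sham and -0.58 in the 6 OA arrays. CXCL9 and the receptor CXCR6 had an r of 0.15 (rho 0.19), -0.21 without the 2 farthest animals, 0.09 in sham and 0.80 in the 6 OA arrays. For these pairs other than CCL2 and CCL8, the value thus differed between sham and the 6 OA arrays, and that difference was not tested.

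Some leukocyte markers were high on the same animals and others were not. CD8A, a marker of cytotoxic T cells, had a scaled signal of 1444 on sham 1, 565 on OA 1 and 808 on OA 2, and of 73.8 to 262 on the other 11 arrays. ITGB2, the integrin chain of leukocytes, was highest on sham 1 within sham, at 2333, and on OA 2 within OA, at 3414. The 9 T and NK cell markers summed to 5028 on sham 1, 2449 on OA 1 and 3410 on OA 2, whereas sham 2, at 3116, was also above the other arrays. The 7 macrophage markers summed to 27176 on OA 2, the highest OA array, but to 14960 on OA 1, and to 19560 on sham 1, below sham 4, at 23922, and sham 7, at 29282. The 2 B and plasma cell markers summed to 28.6 on sham 1 and 48.4 on OA 1, to 21.3 on OA 2, the lowest OA array, and to 84.8 on sham 2. Over 5 lists, 24 leukocyte markers were tested and 0 were called between OA and sham by limma (2 with an unadjusted p under 0.05), with changes from -0.64 to 1.27. The neutrophil and mast cell list was positive for 5 of 5 markers, with a median of 0.48, and its summed signal ran from 2273 to 10119 in sham and from 4379 to 12406 in OA. It held both markers of small p: S100A12, a neutrophil calgranulin, at 1.27 ± 0.37 (SE; log2, limma adjusted p = 0.065), with 7 of 7 OA arrays above the sham mean, and S100A9, of the same family, at 0.76 ± 0.29 (limma adjusted p = 0.15), with 6 of 7. The part of leukocyte content in the values of the chemokines, IL1B2 and CSF3 was not tested.

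Of 10 chemokine receptors 9 were tested, 1 rose (CCR10) and 8 were positive, with a median change of 0.31. CCR3, the eotaxin receptor of eosinophils, stood at 0.40 ± 0.19 (SE; log2, limma adjusted p = 0.25), with 7 of 7 OA arrays above the sham mean. CXCR4, the receptor of CXCL12, stood at 0.31 ± 0.34 and CCR1, a receptor of several CC chemokines, at 0.13 ± 0.42. CCR1, CCR3 and CCR2 follow each other directly in the RefSeq gene order and stood at 0.13, 0.40 and 0.40. CCR7 was the 1 tested receptor with a negative change.

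Among the TNF ligands none of 6 passed, and 5 were positive. TNFSF8, the ligand of CD30 on activated lymphocytes, came nearest, at 0.79 ± 0.22 (SE; log2, limma adjusted p = 0.056). Sham arrays gave 18.5, 24.1 and 34.6 (lowest, median, highest scaled signal), OA arrays 30.5, 36.6 and 80.0, and 7 of 7 OA arrays exceeded the sham mean. It passed when all 14 arrays were required to be above background and on the values of the authors' table (limma adjusted p = 0.045 and 0.047), but not with slide blocked (limma adjusted p = 0.35). TNFSF10, known as TRAIL, an inducer of cell death, stood at -0.91 ± 0.44 (limma adjusted p = 0.26), and none of the 7 OA arrays exceeded the sham mean; its other probe stood at -0.49. TNFSF12, or TWEAK, stood at 0.05 ± 0.17 and its neighbour TNFSF13, or APRIL, at 0.15 ± 0.28. TNFSF13B, the B cell factor BAFF, stood at 0.32 ± 0.33. TNFSF11 and TNFRSF11B, the osteoclast factor RANKL and its decoy, were not analysed here.

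All 3 TNF receptors were positive and none passed. TNFRSF1A, the widely expressed TNF receptor with a death domain, stood at 0.74 ± 0.30 (SE; log2, limma adjusted p = 0.18). In sham the scaled signal was 2697, 7368 and 10129 (lowest, median, highest), in OA 7713, 10758 and 17747, and 7 of 7 OA arrays exceeded the sham mean. Its other 2 probes gave 0.10 and -0.79. TNFRSF1B, the TNF receptor of leukocytes and endothelium, stood at 0.22 ± 0.15, also with 7 of 7 OA arrays above the sham mean, and TNFRSF12A, the TWEAK receptor, at 0.03 ± 0.25.

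Probes of the same gene tracked each other across animals for most members with several probes. They did not for IL1B2 and IL2RG, and did so only in part for IL6R and TNFRSF1A. The brightest probe was set against 19 other tested probes of 16 members over the 14 arrays; 15 of the 19 had its sign of change and 4 the opposite sign, and 0 of the 19 were called. For 12 members the Pearson r between probes was above 0.8, a bound chosen after the values were seen. Among these 12, r ran from 0.84 to 1.00 and rho from 0.78 to 1.00. The bound itself makes their p small, so none is given for them. Permutation p below are adjusted over the 19 and take the arrays as exchangeable, although group and slide differ. The lowest r was 0.76 without the 2 farthest animals, 0.90 within sham and 0.87 within the 6 OA arrays of 1 scan day. They included CXCL10 at 0.98, CCL2 at 0.97, CCL5 at 0.94, CXCL2 at 0.98, IL15 at 0.99 and CCR1 at 1.00. The brightest probe of IL1B2 had an r of 0.09 and 0.14 with its other probes (rho 0.19 and 0.30; adjusted permutation p = 0.80 and 0.70 for r). That of IL2RG had an r of -0.34 with its other probe (rho -0.48; adjusted permutation p = 0.27 and 0.11). Within sham the r was 0.69 and 0.76 for IL1B2 and -0.41 for IL2RG. Over the 14 arrays IL6R gave an r of 0.57 and 0.07 (adjusted permutation p = 0.047 and 0.83). TNFRSF1A gave an r of 0.55 and -0.61 (adjusted permutation p = 0.047 and 0.039). Its rho was 0.46 and -0.71 (adjusted permutation p = 0.12 and 0.0080). Several of these other probes were near background in OA: that of IL2RG was well above it on 1 of 7 OA arrays, those of IL1B2 on 4 each, those of IL6R on 6 and 4, and the TNFRSF1A probe of negative r on 5. The changes and correlations of these dim probes therefore do not settle the direction of the transcript, and CCR10 had no other probe. The TNFRSF1A probe with an r of 0.55 was not dim. It was well above background on all 14 arrays and gave 0.10 ± 0.18 (SE, log2, limma adjusted p = 0.80).

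Genes of the same pathways outside the naming rule were read beside the members. Of 94 listed ligands, receptors and signal carriers, 38 were tested; 4 rose and 0 fell, against 2.97% and 0.266% of all tested genes. They were XCR1, the receptor of XCL1 on dendritic cells, at 0.89 ± 0.17 (SE; log2, limma adjusted p = 0.012), LIF, which signals through gp130, at 0.68 ± 0.14 (limma adjusted p = 0.014), STAT6, the transcription factor of IL4R, at 0.73 ± 0.17 (limma adjusted p = 0.023), and CSF3, the granulocyte growth factor, at 0.90 ± 0.23 (limma adjusted p = 0.037). With slide blocked 0 of the 4 passed, and 1 of all 2258 tested genes did. Because each slide held 1 group only, the block cannot separate slide from group. The sizes of the changes in that fit therefore say nothing on a slide effect. The 4 changes with slide blocked were 0.88 for XCR1, 0.69 for LIF, 0.72 for STAT6 and 0.88 for CSF3 (limma adjusted p = 0.094, 0.12, 0.16 and 0.21). Without slides 3 and 4 the changes were 0.93, 0.83, 0.68 and 0.28 in the same order (limma adjusted p = 0.19, 0.11, 0.34 and 0.77). Before scaling, the order of the group medians was the other way for each. For the same genes in turn they were 139, 58.6, 93.2 and 24.7 in sham and 97.4, 37.3, 71.5 and 23.0 in OA. TNF stood at -0.15 ± 0.23 and IFNG, the inducer of the CXCR3 ligands, at -0.36 ± 0.22. Of the 22 tested signal carriers 9 were positive, with STAT3 at 0.84 ± 0.24 (limma adjusted p = 0.063) and RELA, a subunit of nuclear factor kappa B, at -0.79 ± 0.24 (limma adjusted p = 0.080).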

How the data were processed

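Per the file headers, the authors' scanner intensity values come from Agilent Feature Extraction 11.0.1.1; its processed signal was taken as deposited, without scaling between arrays. The authors' table of log2 values served as an alternative only; its steps were not stated. Set against the scanner signals of each array it had a Spearman rho of 0.994 to 1.00 and column medians of 6.00, so it runs the same way and is not centred by gene. Here log2 processed signals had the 75th percentile of each array's non-control probes subtracted. Spots marked as outliers were set missing (82), none was saturated, and repeated spots were averaged. The filter kept probes called well above background by the scanner software on 7 or more of the 14 arrays, which were tested with limma 3.58.1 in R 4.3.3 (two-sided, Benjamini-Hochberg over all tested probes, threshold 0.05), after a check on simulated data. Each array is taken as 1 animal. Genes were named by matching RefSeq accessions without versions to the RefSeq table of Sscrofa11.1 (5461 of 5779 probes with an accession), and a gene's brightest probe stands for it. No coordinates are given because the files name no build. Members with values are those past the threshold, the 15 with the highest signal, the 15 with the smallest p and a fixed set of joint-related genes; others were named after their values were seen. The values of 1 tested member are not reported here, though it is in the counts. Members and lists were chosen with earlier results of these data known. Alternatives were other scalings, normexp (on the median signal, the one the files hold), other filters, blocks for slide, scan day and replicate number, an array brightness covariate, the mean of a gene's probes, and leaving out arrays or slides. Leaving out slide 4 or slide 5 was added after seeing the data. The number of arrays limits the precision. Replicate numbers are shared by the groups but the labels do not tie them to a common animal or day.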

Additional observations from a re-analysis of the deposited data

Results flagged for a closer look

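In 5 of 70 groups of 7 arrays examined for the named members, 1 array lay far from the others by Dixon's 95% criterion; chance gives about 1 in 20. CXCR4 read 638 on OA 4, against a next highest OA value of 312. IL16 read 15551 on OA 3, against 8420. TNFSF13 read 903 on OA 5, against 462. TNFSF10 read 26.4 on OA 3, against a next lowest OA value of 94.0. IL23A read 4.66 on sham 1, against a next lowest sham value of 8.01. All are scaled signals.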

How the results depend on the processing

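Of 1008 recomputed changes of 35 named members, 896 kept direction and side of the threshold, and 18 members turned sign under no alternative; the causes of the shifts below were not tested. The count of members higher in OA was 28 with normexp (which also moved the median change of all named genes to 0.19), 5 with no filter (IL4, at background on every array, among them), 5 without slide 5, 1 with the mean of a gene's probes and 0 with slide, scan day or replicate block, array brightness, without slide 4 or without slides 3 and 4; leaving out 1 array gave 1 to 4. The count of all tested genes called higher moved too. It was 67 of 2258 in the main fit, 728 with normexp, 92 of 2389 with no filter, 78 without slide 5 and 36 with the mean of probes. With slide, scan day or replicate block it was 1, 7 and 20, and with array brightness 0. It was 3 without slide 4 and 3 without slides 3 and 4, and leaving out 1 array gave 36 to 73. Members lower were 1 without slides 3 and 4 (IL12B) and 0 to 2 leaving out 1 array, against 3 and 3 to 46 of all tested genes. Pathway genes higher were 13 with normexp, 1 with the mean of probes, 0 in the same 6 fits and 2 to 5 leaving out 1 array; pathway genes lower were 1 with quantile normalization, median scaling, the authors' table and without slide 5, and 0 to 1 leaving out 1 array. The replicate block was a check only. Deviations of same-numbered animals correlated at -0.19 to 0.27, which shows no pairing by number but cannot exclude a weak one. Signs turned for these log2 changes. With normexp: CCL19 -0.030, CCL3L1 0.11, CXCL8 0.36, IL12B 0.56, IL12RB2 0.34, IL23R 0.65, IL6ST 0.14 and TNFSF12 -0.098. With array brightness: CCL19 -0.37, CCL3L1 0.27, CCR1 -0.14, CXCL10 0.017, CXCL16 -0.063, CXCL8 0.32, IL15 0.022, IL23R 0.16 and IL6ST 0.59. Without slides 3 and 4: CCL19 -0.33, CCL2 -0.027, CCL3L1 0.10, CCR1 -0.42, CXCL16 -0.098, CXCL8 0.049, IL23R 0.18, IL6ST 0.26, TNFSF12 -0.020 and TNFSF13B -0.066. Without slide 4: CCL19 -0.32, CCL3L1 0.12, CCR1 -0.078, CXCL10 0.25, IL15 0.031, IL23R 0.40 and TNFSF13B -0.075. CXCL8 and TNFSF12 turned to 0.076 and -0.062 with quantile normalization and to 0.023 and -0.062 in the authors' table. CXCL9 turned to 0.073 with slide blocked, 0.070 with scan day blocked and 0.49 without slide 5, and CCL19 to -0.029 with slide blocked. Leaving out 1 array, the ranges that crossed 0 were CCL19 -0.11 to 0.12, CCR1 -0.12 to 0.39, CXCL10 -0.49 to 0.22, CXCL2 -0.013 to 0.47, CXCL8 -0.36 to 0.43, CXCL9 -0.50 to 0.48, IL15 -0.28 to 0.090, TNFSF12 -0.020 to 0.14 and TNFSF13 -0.025 to 0.34. Signal over background limits the 16 tested members that missed it on at least 1 OA array.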
